A study of Mus musculus with 4 samples.

Results

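The immunoglobulin gene segments are the V, D, J and C segments from which B cells assemble their antigen receptors. They were taken from the GENCODE annotation of mouse build GRCm38 (mm10) as every gene typed as an immunoglobulin V, D, J or C gene, which gave 264 of 53843 annotated genes on chromosomes 1 to 19 and X. The heavy chain locus Igh (chr12:113204830-116050461 with 50 kb on each side) held 144 of them, as 113 V, 19 D, 4 J and 8 C genes. The kappa light chain locus Igk (chr6:67505497-70776966) held 108, as 102 V, 5 J and 1 C gene, and the lambda light chain locus Igl (chr16:19011618-19310859) held 12, as 3 V, 5 J and 4 C genes. Another 158 V pseudogenes and 4 genes typed as IG_LV lie outside this definition and are given only where named.

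The chromatin of these loci was read in a single group of 4 DNase-seq libraries, labelled biological replicates 1 to 4, made from naive, resting T cells that are CD8-positive and carry the alpha-beta receptor. Their source was virgin female B6CASTF1/J mice, the F1 cross of C57BL/6J and the wild-derived strain CAST/EiJ, at 2 months of age, with no treatment named. DNase I cuts DNA that is not covered by nucleosomes, and a peak marks an accessible site. The labels give each library its own biosample but all libraries 1 donor identifier, with no word on separate animals, so every p-value over libraries measures only the spread between these libraries. Both parental alleles of the cross are pooled in every value, and, in a bulk sample, accessibility in fewer cells and less accessibility per cell cannot be told apart.

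Each immunoglobulin V segment carries its promoter at the 5′ end and, just 3′ of its coding end, a recombination signal sequence made of a conserved heptamer, a spacer and a nonamer, at which the RAG recombinase cuts. D and J segments carry such signals too, and C segments are joined by splicing. CTCF binds along the Igh V region and beyond the last C gene, and loops between these sites bring distant V genes near the D and J segments. In B lineage cells an enhancer between the J segments and the first C gene and regulatory elements 3′ of the C genes drive the locus, while mature T cells use the related T cell receptor genes instead.

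The sequences at the 3′ ends of 9 Igh V genes show the letters that were searched for at V ends. Each line runs 5′ to 3′ on the strand of the V gene, from 14 bases before its last base to 76 bases after it, in the GRCm38.p6 reference from RefSeq, which is a C57BL/6J sequence. Capitals mark the heptamer CACAGTG, the CTCF motif core (CC, then any 3 bases, then AGGGGGC) and the letters ACCACA, the complement of the RUNX core TGTGGT, wherever any of them lies in the line, on either strand. The 9 genes were picked after their values were seen, to show 3 with the CTCF core and a site, 1 with the core and no site, 1 with a near match, 3 with ACCACA and a site, and 1 without it.
Ighv5-2 (chr12:113578428-113578518, minus strand): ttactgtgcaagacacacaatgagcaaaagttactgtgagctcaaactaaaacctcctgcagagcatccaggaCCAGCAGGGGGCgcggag
Ighv2-6 (chr12:113716594-113716684, minus strand): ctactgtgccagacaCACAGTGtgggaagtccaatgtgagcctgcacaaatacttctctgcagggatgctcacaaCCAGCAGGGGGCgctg
Ighv4-1 (chr12:113948206-113948296, minus strand): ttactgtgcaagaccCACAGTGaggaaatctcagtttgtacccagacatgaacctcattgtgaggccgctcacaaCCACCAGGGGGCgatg
Ighv3-6 (chr12:114288076-114288166, minus strand): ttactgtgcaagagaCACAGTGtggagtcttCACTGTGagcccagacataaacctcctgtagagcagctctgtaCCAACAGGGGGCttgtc
Ighv11-1 (chr12:113981803-113981893, minus strand): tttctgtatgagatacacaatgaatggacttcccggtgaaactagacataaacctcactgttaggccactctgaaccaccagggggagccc
Ighv14-2 (chr12:113994393-113994483, minus strand): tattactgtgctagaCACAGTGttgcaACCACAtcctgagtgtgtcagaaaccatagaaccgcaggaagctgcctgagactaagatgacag
Ighv1-12 (chr12:114615774-114615864, minus strand): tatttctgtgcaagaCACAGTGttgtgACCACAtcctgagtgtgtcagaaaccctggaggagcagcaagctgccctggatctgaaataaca
Ighv1-85 (chr12:115999952-116000042, minus strand): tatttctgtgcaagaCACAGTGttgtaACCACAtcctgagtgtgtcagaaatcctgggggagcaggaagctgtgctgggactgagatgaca
Ighv1-26 (chr12:114788296-114788386, minus strand): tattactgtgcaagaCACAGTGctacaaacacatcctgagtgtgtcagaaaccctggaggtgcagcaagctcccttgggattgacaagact

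The 3 genes at the top, Ighv5-2, Ighv2-6 and Ighv4-1, had an accessible site at the V end in replicates 1, 2 and 3. Ighv3-6 carried the same core and had no peak at its V end in any library. Ighv11-1, whose site holds the core only with 1 mismatch, and Ighv14-2 were the V genes with a peak at the V end in all 4 libraries. Ighv1-12 and Ighv1-85 of the large V1 family had a peak in 3 libraries, and Ighv1-26, of the same family but without these RUNX letters, had none.

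The longer of the deposited peak lists held 69365, 70533, 51101 and 20636 peaks in replicates 1 to 4, and the smallest step between peak heights implied depths of 109 M, 62.9 M, 91.5 M and 24.3 M tags. Merging peaks that overlapped by at least 1 bp gave 86884 sites, of which 41216 were called in at least 3 libraries. Relative height below is a peak's height divided by its library's median at the 17540 sites that every library called, and a library with no peak was given 0. Replicate 4 is the shallowest library. The libraries also differed in markers of cell type. Cd8b1, a chain of the CD8 coreceptor, had a peak within 1 kb of its start in all 4 libraries. Cd8a, the other chain, had one in replicates 1 and 2 only, at relative heights of 0.498 and 0.366. Replicates 3 and 4 thus lacked a peak at this marker of their label, and the reason was not tested. Low sites across the genome, called in replicates 1 and 2 and under 0.5 in replicate 1, give a comparison. Of these, 66.0% were called in replicate 3 and 10.9% in replicate 4. As a scale for the lists that follow, 11776, 11768, 11434 and 9307 of 21755 protein-coding genes had a peak within 1 kb of the start in replicates 1 to 4. Peaks lay at 9, 8, 13 and 7 of 18 B cell genes in replicates 1 to 4, with summed relative heights of 2.68, 3.03, 5.80 and 4.74, and Fcer2a, Cxcr5, Vpreb3 and Spib were among those with none in any library. Of 10 T cell genes 10, 10, 7 and 3 had a peak, with sums of 5.57, 4.92, 3.73 and 2.32. Of the CD4 T cell genes, Zbtb7b had relative heights of 0.251, 0.358, 0.746 and 1.12 and Cd4 had no peak. Of 8 myeloid genes 3, 3, 3 and 0 had a peak, and Csf1r, Csf3r, Adgre1, S100a8 and S100a9 had none in any library. Whether other cells contributed to the values below was not tested, and values without replicate 4 or for replicates 1 and 2 alone are given for the loci where they move most.

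The 3 loci differed in how many sites they held. Igh had 127, 142, 86 and 10 peaks in replicates 1 to 4, which is 44.6, 49.9, 30.2 and 3.51 peaks per Mb, against 27.1, 27.5, 19.95 and 8.07 per Mb in the rest of the genome. Its density was thus 1.65, 1.81 and 1.51 times that of the rest of the genome in replicates 1 to 3 and 0.436 times in replicate 4. Igk, a locus of similar length, had 18, 24, 12 and 2 peaks, and its density was 0.203, 0.266, 0.184 and 0.0757 times that of the rest of the genome. Igl had 2, 5, 8 and 3 peaks, with ratios of 0.247, 0.606, 1.34 and 1.24.

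Igk stood below the rest of the genome in 4 of 4 libraries, by a mean of -2.48 ± 0.65 on the log2 scale with a pseudocount of 0.5 peaks (SD, n = 4; exact sign-flip permutation test, two-sided p = 0.13, adjusted p = 0.25 over 6 tests). This p is the smallest that 4 libraries can give. The same mean was 0.27 ± 0.94 for Igh (exact p = 0.625) and -0.31 ± 1.06 for Igl (exact p = 0.625), so neither differed from the rest of the genome by more than the spread between libraries. Replicate 4 decided the Igh value, which was 0.73 without it (exact p = 0.25, the smallest that 3 libraries can give). The Igl value was -0.59 without replicate 4 and -1.14 for replicates 1 and 2 alone, the libraries with a peak at Cd8a. Of the Igh sites called in both replicates 1 and 2, 79 of 106 were called in replicate 3 and 9 of 106 in replicate 4, against 77.5% and 33.9% of all such sites in the genome. Most Igh sites were low, and among sites with a relative height under 0.5 in replicate 1 the share called in replicate 4 was 1.11% of 90 in Igh and 10.9% of 34111 in the genome.

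The T cell receptor loci Tra/Trd, Trb and Trg include the genes of the alpha-beta receptor that these cells carry. Set against them, the 3 immunoglobulin loci together had fewer peaks per Mb in 4 of 4 libraries, at 0.488, 0.555, 0.682 and 0.458 times the density of Tra/Trd, Trb and Trg together (mean log2 ratio -0.89 ± 0.25, SD, n = 4; exact sign-flip permutation p = 0.13, adjusted p = 0.25). Igh on its own was close to Tra/Trd, which was at 1.77, 1.88, 1.29 and 0.654 times the rest of the genome in replicates 1 to 4, and was the higher of the pair in replicate 3 only. Footprints, short stretches protected from DNase I within accessible DNA, were fewer in the 3 immunoglobulin loci together than in the rest of the genome in 4 of 4 libraries, at 0.561, 0.581, 0.426 and 0.236 times the density per Mb (mean log2 ratio -1.23 ± 0.60; exact sign-flip permutation p = 0.13, adjusted p = 0.25). Igh alone held 223, 195, 128 and 15 of them, at 1.17, 1.18, 0.835 and 0.516 times the rest of the genome, and Igk held 17, 17, 10 and 0.

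**Figure D1:**
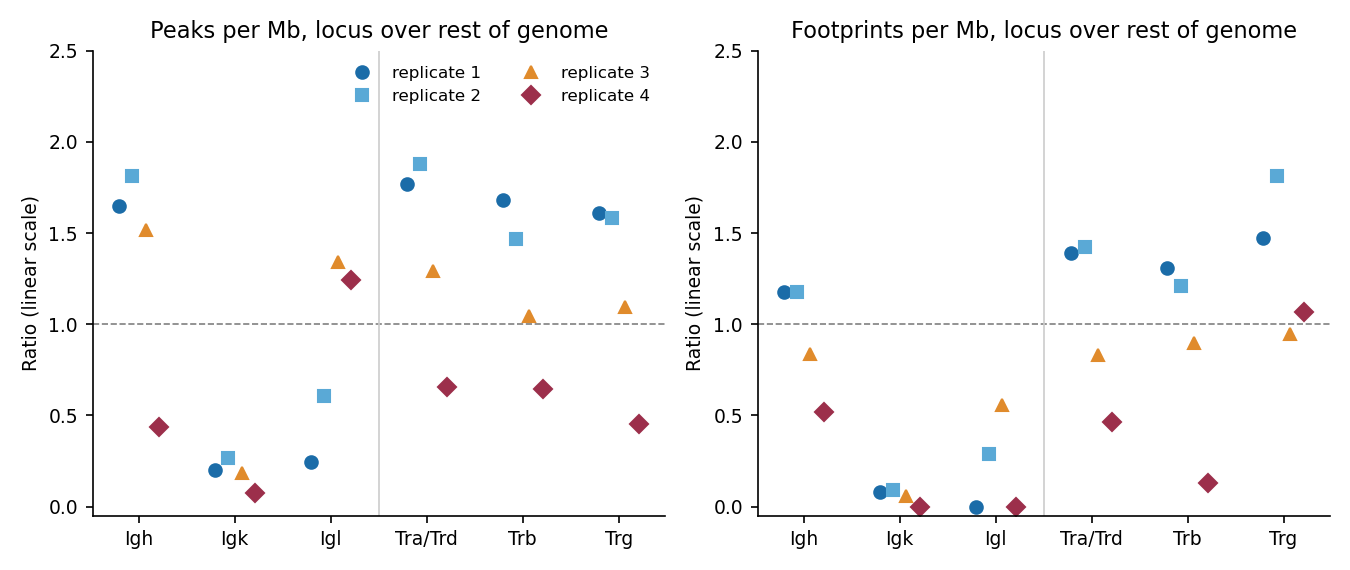
Density of peaks (left) and of footprints (right) in each immunoglobulin and T cell receptor locus, as a ratio to the rest of the genome, with 1 point per library and a dashed line at 1. Igk lies between 0.0757 and 0.266 for peaks in all 4 libraries, while Igh lies between 1.51 and 1.81 in replicates 1 to 3 and at 0.436 in replicate 4.

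By segment class, the V genes of Igh were the members with sites. A segment was called where a peak lay within 1 kb of its annotated start in at least 3 libraries, and 35 of 264 members were called, or 13.3%, against 26.9% of all other genes and 51.1% of protein-coding genes. All 35 were Igh V genes, which is 31.0% of 113. Per library, 52, 55, 36 and 2 of the 113 had a peak, against 29.6%, 29.6%, 28% and 21.4% of all other genes. None of the 19 D, 4 J and 8 C genes of Igh, none of the 108 Igk members and none of the 12 Igl members reached 3 libraries. Among T cell receptor segments 31 of 226 were called, with 27 of 144 V genes. The 4 IG_LV genes had no peak in any library, and 10 of 81 Igh V pseudogenes were called. The 35 V genes shared their windows with 37 distinct sites called in at least 3 libraries.

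The tallest V gene sites lay in the part of the V region nearer to the D segments. Ighv11-1, of a small family known from B-1 cells, had relative heights at its site chr12:113981721-113981920 of 2.34, 3.12, 1.53 and 0.895 by replicate number (mean 1.97 ± 0.97, SD, n = 4). Ighv14-2 had 1.26, 0.950, 0.966 and 0.667 (mean 0.961 ± 0.243). These 2 genes were the V genes with a peak in every library, and in each the lowest value was that of replicate 4. Ighv11-2, the other member of the V11 family, had 0.531, 0.596 and 0.354 in replicates 1 to 3 and no peak in replicate 4. Ighv14-3 had 0.442, 0.438 and 0.326, Ighv5-2, the V gene next to the D segments, had 0.331, 0.488 and 0.278, and Ighv12-3 had 0.382, 0.417 and 0.216, each without a peak in replicate 4. The other 29 called V genes had mean relative heights between 0.0675 and 0.274. A typical Igh V site was thus well below the median of the sites shared by all libraries.

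A further tall site of the V region lay at a pseudogene. The site chr12:114012981-114013160, at the V end of the pseudogene Ighv4-2, reached 2.31, 2.48, 1.26 and 1.33 in relative height. The site chr12:114587341-114587540, which lies at -3438 bp from Ighv1-9 (on its 5′ side) and at no V end, had 1.07, 1.22 and 0.570 in replicates 1 to 3 and no peak in replicate 4. Both hold the CTCF core.

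Families differed in their calls. In the V1 family, the largest, 20 of 53 genes were called in at least 3 libraries, with mean relative heights of 0.267 for Ighv1-12 and 0.207 for Ighv1-54 at V-end sites, and of 0.198 for Ighv1-69 and 0.194 for Ighv1-53 at sites on the 5′ side of the gene. The V14 family had 3 of 4, V11 had 2 of 2, V9 had 2 of 4, V2 had 3 of 9 and V5 had 2 of 10. Ighv4-1, Ighv7-4 and Ighv12-3 were the called genes of families with 1, 4 and 1 members. None was called among 6 genes of V3, 5 of V6, 9 of V8 and 2 of V10, nor in V13, V15 and V16 with 1 gene each.

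Most called V genes had their site at the 3′ end, and none had one in the 250 bp before its start in at least 3 libraries. Of the 35, 27 had a peak within 100 bp of the V end in at least 3 libraries. Another 6, all of the V1 family, were called through a site that lay at -729 to -825 bp, on the 5′ side of the gene, and held the CTCF core; these were Ighv1-53, Ighv1-55, Ighv1-62-3, Ighv1-67, Ighv1-69 and Ighv1-72. Ighv1-49 and Ighv1-71 had a peak at the V end in 2 libraries. Within 100 bp of the V end, 44, 44, 28 and 2 of the 113 Igh V genes had a peak in replicates 1 to 4, and 27 had one in at least 3 libraries, against 1.32% of all other genes at their 3′ ends. In the 250 bp before the V gene start, where the promoter lies, 2, 1, 0 and 0 Igh V genes had a peak and none in at least 3 libraries, against 20.1% of all other genes. The T cell receptor V genes had more peaks before the start than at the V end, although many of their V ends are repeated sequence, as given below. Of 144, 44, 44, 25 and 2 had a peak in the 250 bp before the start, and 10, 10, 1 and 0 at the V end. Most Igh V genes have the octamer ATGCAAAT, the site of Oct factors that B cells use in V promoters, in those 250 bp, 90 of 113, as do 73 of 102 Igk V genes and none of the T cell receptor V genes, against 1.74% of all RefSeq promoter windows of 300 bases.

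The deposited cut-rate intervals, stretches whose density of DNase I cuts passed a false discovery rate of 0.05, gave the same position. In the 50 bp just 3′ of the V end, 39.8%, 37.2%, 23.0% and 1.77% of the Igh V genes had such an interval in replicates 1 to 4. In the bin 700 to 650 bp before the V end, upstream of the start of a typical V gene, the shares were 0.885%, 0, 0 and 0. The T cell receptor V genes had 6.94%, 6.94%, 0.694% and 0 in the first bin and 25.7%, 26.4%, 14.6% and 0.694% in the second. Igk V genes stayed at or below 2.94% in every bin and library. Footprints lay within 100 bp of the V end in 33, 33, 20 and 1 of the 113 Igh V genes. The numbers were 0, 0, 1 and 0 of 102 Igk and 5, 5, 0 and 0 of 144 T cell receptor V genes. The share of all other genes with a footprint at the 3′ end was not computed, so the Igh count has no genome-wide scale.

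**Figure D2:**
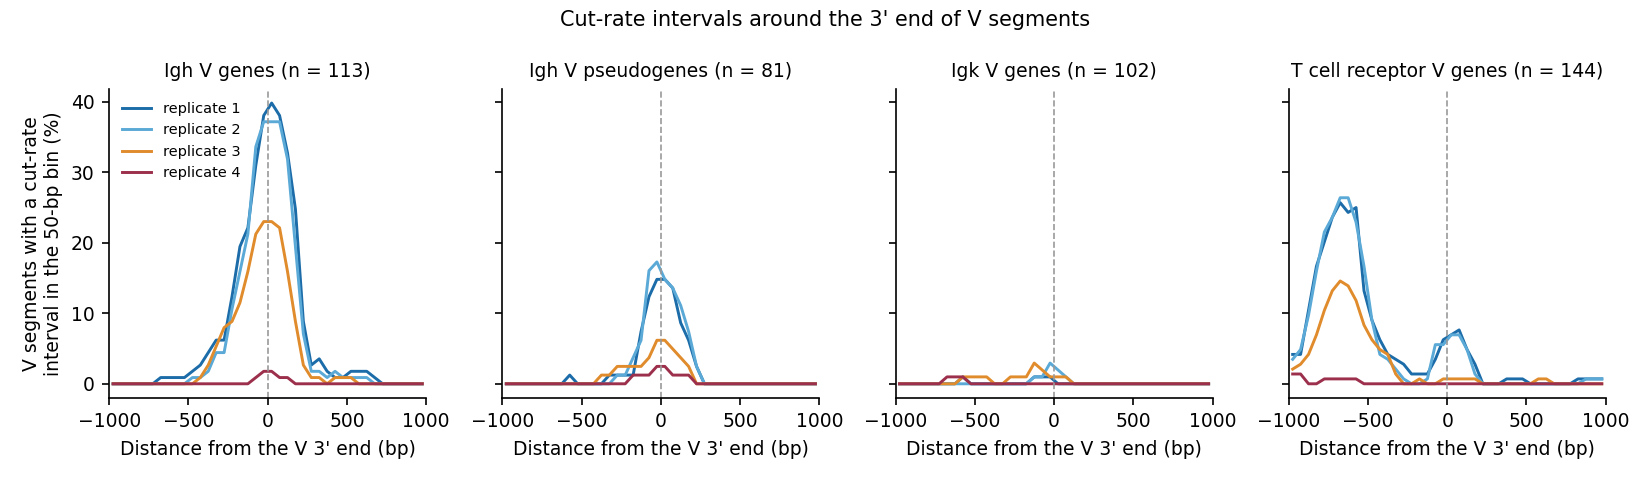
Share of V segments, in percent, with a cut-rate interval in each 50-bp bin from 1000 bp before to 1000 bp after the 3′ end of the V segment (dashed line), for Igh V genes, Igh V pseudogenes, Igk V genes and T cell receptor V genes, with 1 line per library. Igh V genes peak at the V end, at 39.8% in replicate 1, and T cell receptor V genes peak 700 to 650 bp before it, at 25.7% in replicate 1.

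Over whole segments, 13.3%, 11.7%, 9.02% and 0.139% of the bases of Igh V genes lay in cut-rate intervals, against 1.06%, 0.952%, 0.831% and 0.269% of the genome. D and J segments had no base in an interval in any library. C segments had none in replicates 1 and 4, 289 bases in Igh C genes in replicate 2, and 279 bases in Igl C genes in replicate 3. For all 264 members together the share was 4.14, 4.30 and 4.02 times that of the genome in replicates 1 to 3 and 0.392 times in replicate 4, a mean of 1.20 ± 1.70 on the log2 scale (SD, n = 4; exact sign-flip permutation p = 0.25, adjusted p = 0.375). Without replicate 4 the mean was 2.05 (exact p = 0.25, the smallest that 3 libraries can give). With intervals under 0.001 only, the ratio was 3.28, 3.49 and 1.73 in replicates 1 to 3, and replicate 4 had no base left.

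The letters at the V end split the V genes into groups that do not overlap. The CTCF core, searched on both strands within 110 bases 3′ of the V end, was present in 25 of 113 Igh V genes and in none of the 102 Igk and 144 T cell receptor V genes, against 1.28% of all RefSeq promoter windows of 300 bases. In all 25 it lay on the strand of the V gene, and it began a median of 61 bases after the V end (range 14 to 64). The genes were members of the families V2, V3, V4, V5, V7 and V13. The letters ACCACA, searched within 60 bases, were present in 47 of 113, all in the V1, V9 and V14 families, and in each of the 47 they began exactly 13 bases after the V end on the strand of the V gene, which puts them inside the spacer of the recombination signal, as the lines for Ighv14-2, Ighv1-12 and Ighv1-85 show. No gene had both. The letters were present in 3 of 102 Igk and 17 of 144 T cell receptor V genes, and in 16.8% of the RefSeq promoter windows. The windows differ in length, so these shares set a scale only.

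Sites at the V end were counted in each of these groups. Of 25 genes with the CTCF core 11, 15, 8 and 0 had a peak in replicates 1 to 4 and 7 had one in at least 3 libraries. Of 47 genes with ACCACA the numbers were 26, 24, 16 and 1, with 16 in at least 3 libraries. Of 41 genes with neither the numbers were 7, 5, 4 and 1, with 4 in at least 3 libraries, and these 4 were Ighv11-1, Ighv11-2, Ighv12-3 and Ighv1-56. Where a site was called, its centre lay a median of 59 bases after the V end in genes with the CTCF core (range 42 to 84, n = 7) and at -35.5 bases, before the V end, in genes with ACCACA (range -142 to 21, n = 16). In the V1 family, 11 of 40 genes with ACCACA and 1 of 13 without it had a site in at least 3 libraries. The core also occurred without a site, as 5 of 6 genes of the V3 family carried it and none had a peak at the V end in any library. The heptamer CACAGTG at the V end was present in 82 of 113 Igh and 86 of 102 Igk V genes, while no Igk V gene had a site there in at least 3 libraries. These groupings were chosen after the sequences had been read and no test was run on them.

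Near-identical copies limit what can be seen at V genes, since reads that match more than 1 place may have been dropped or placed at random, and the sources used here do not say which. Within 100 bases on each side of the V end the median share of 32-base words that occur once in the genome was 72.4% for genes with the CTCF core, 40% for genes with ACCACA and 62.9% for genes with neither. Among genes with at least 80% of such words, 4 of 10 with the core, 3 of 6 with ACCACA and 1 of 17 with neither had a site in at least 3 libraries. For whole V segments with 100 bp on each side the medians were 58.4% in Igh and 56.2% in Igk, so the 2 loci were alike in this measure. At the V end the median was 54.1% for all 113 Igh V genes and 29.4% for all 144 T cell receptor V genes. Peaks at T cell receptor V ends may thus have been missed more often. The 22 Trb V genes had a median of 100%, with a peak at the V end in 4, 2, 0 and 0 of them in replicates 1 to 4. In the 250 bp before the start, 8, 6, 5 and 0 of the 22 had one.

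**Figure D3:**
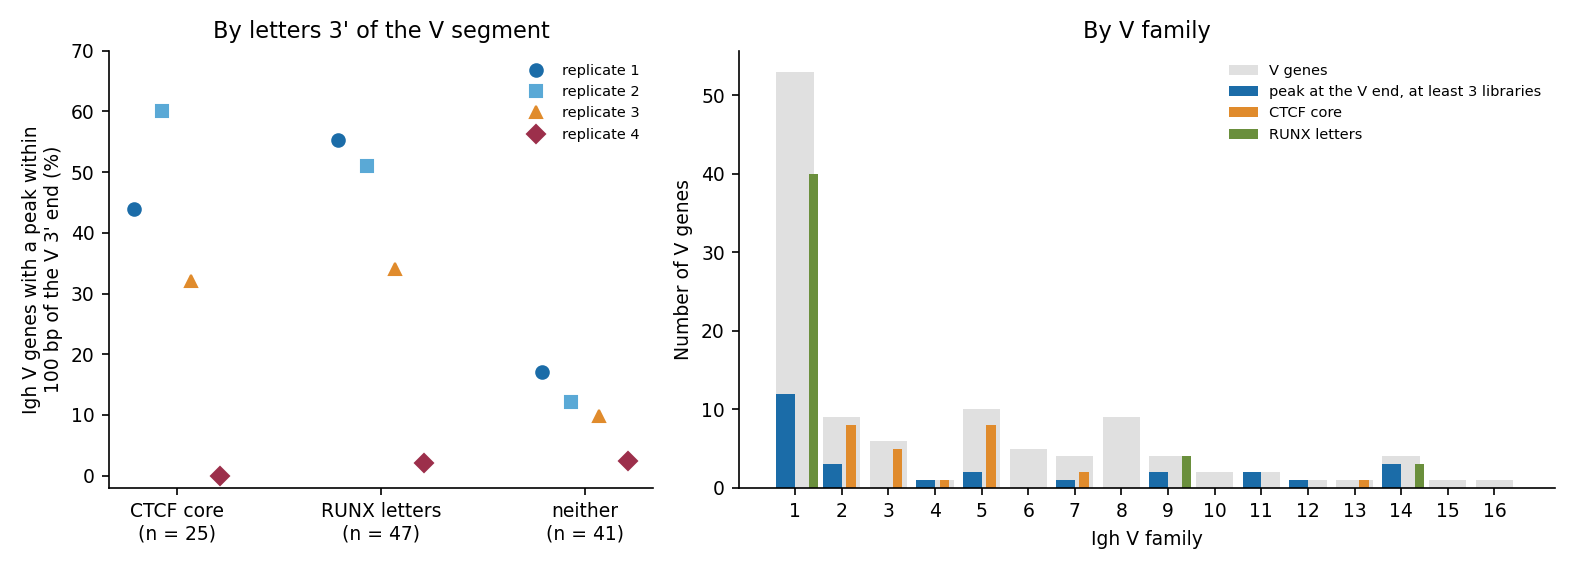
Left, share of Igh V genes with a peak within 100 bp of the V 3′ end, in percent, by library, for genes with the CTCF core, with the RUNX letters ACCACA or with neither 3′ of the V segment. Right, for each Igh V family, the number of V genes (grey), of those with a peak at the V end in at least 3 libraries (blue), and of those with the CTCF core (orange) or the RUNX letters (green); V3 has 5 genes with the core and no gene with a peak.

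Counted by site, the letters were more frequent in Igh than in accessible DNA at large, with no test run. The CTCF core lay within 100 bases of the centre of 28 of 79 Igh sites called in at least 3 libraries, or 35.4%, against 6.28% of all 41216 such sites, 5 of 42 in Tra/Trd and 1 of 15 in Trb. The heptamer was present in 31.6% of Igh sites and 5.42% of all sites, and ACCACA in 38.0% and 17.8%. In the same central window the octamer was in none of the 79 Igh sites and in 0.900% of all sites. The J to C intron site printed below holds an octamer outside that window. In the V region, counting the site at Ighv5-2, 29 of 62 sites lay within 100 bp of the end of a V gene, 6 at the end of a V pseudogene and 27 elsewhere. Of the 27 elsewhere, 17 held the core, against 7 of the 29 at V gene ends.

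The orientation of the core was uniform. All 24 cores in V region sites, and those in the sites at Ighv5-2 and in the 5′ flank, lay on the minus strand of the chromosome, which is the strand of the V genes. Both cores in sites of the 3′ flank lay on the plus strand, so that the letters at the opposite ends of the locus point towards each other. V region sites with the core (24) had median relative heights of 0.226, 0.230 and 0.163 in replicates 1 to 3, and those without it (37) had 0.222, 0.154 and 0.151.

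Outside the V region, the Igh sites are given from the C genes towards the V genes. Beyond the last C gene, Igha, 9 sites called in at least 3 libraries lay between chr12:113216041 and chr12:113224520, at 30410 to 38690 bp from Igha. The tallest site of all 3 loci was among them. It spans chr12:113222121-113222580 and its relative height was 2.98, 2.83, 3.21 and 2.16 by replicate number (mean 2.80 ± 0.45, SD, n = 4), which places it above 98.7%, 98.3%, 98.4% and 86.6% of the peaks of these libraries. Its neighbour chr12:113221361-113221540, printed below with the CTCF core in capitals, had 0.567, 0.571, 0.540 and 1.21. The other 7 had mean relative heights of 0.350 to 0.515 and no peak in replicate 4. Between these sites and Igha, 1 peak was called, at chr12:113228281-113228466 in replicate 3 only, with a relative height of 0.241.
Igh 3′ flank site (chr12:113221361-113221540, plus strand): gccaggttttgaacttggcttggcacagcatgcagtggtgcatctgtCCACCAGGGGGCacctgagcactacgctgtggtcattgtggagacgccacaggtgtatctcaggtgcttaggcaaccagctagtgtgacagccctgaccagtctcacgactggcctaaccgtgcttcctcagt

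The C genes themselves were nearly without sites. Their region held 4 sites, all called in replicate 2 and 1 of them also in replicate 3, and none in 3 libraries. Ighg2c, which encodes a constant region of the IgG class, was the C gene of Igh with a peak within 1 kb of its start in any library, in replicate 2 at 0.0457. The intron between the J segments and Ighm, which holds the heavy chain intronic enhancer of B cells, had a low site at chr12:113427419-113427660, 975 bp beyond Ighj4, at 0.242, 0.213 and 0.306 in relative height for replicates 1 to 3 and no peak in replicate 4. It is printed here on the strand of the genes, with capitals for the octamer, for the E box CAGGTG and for the RUNX core, each on either strand.
Igh J to C intron site (chr12:113427419-113427660, minus strand): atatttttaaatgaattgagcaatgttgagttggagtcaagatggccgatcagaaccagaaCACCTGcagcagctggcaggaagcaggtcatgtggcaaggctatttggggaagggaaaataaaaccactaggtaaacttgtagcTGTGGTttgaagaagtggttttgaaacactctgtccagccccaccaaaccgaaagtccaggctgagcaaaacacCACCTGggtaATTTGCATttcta

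The octamer lies near the 3′ edge of the site. No peak covered the J segments, and Ighj4 had a peak within 1 kb of its start in replicates 1 and 2. A second peak of the intron was called in replicate 1 only, at 0.182, near the starts of the annotated miRNA genes Gm22175, Gm24022 and Gm25747.

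The D region had 3 sites called in at least 3 libraries, and all lay between D segments. The site chr12:113487781-113488000, which lies between Ighd1-1 and Ighd3-1, on the V side of Ighd1-1 at a distance written as -5698 bp (a minus marks the 5′ side of the segment), was among the tallest of the locus with 1.14, 1.03 and 0.756 in replicates 1 to 3 and no peak in replicate 4. The sequence of the site is printed on the strand of the genes with a near match to the CTCF core, of up to 1 mismatch, in capitals, which is on the opposite strand to the genes. Such near matches were in 31.3% of all sites called in at least 3 libraries.
Site 5′ of Ighd1-1 (chr12:113487781-113488000, minus strand): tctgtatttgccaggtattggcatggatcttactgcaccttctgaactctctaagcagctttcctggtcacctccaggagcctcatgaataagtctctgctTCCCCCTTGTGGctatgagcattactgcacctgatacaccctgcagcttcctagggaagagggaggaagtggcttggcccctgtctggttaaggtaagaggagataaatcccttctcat

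A lower site between the same D segments, chr12:113485181-113485380, had 0.278, 0.143 and 0.199. The third site, chr12:113446141-113446400, 1944 bp from Ighd3-2, had 0.464, 0.370 and 0.275. Ighd1-1 had a peak within 1 kb of its start in replicates 1 and 2, at 0.176 and 0.177, and none of the other 18 D segments had a peak in any library. In the 5′ flank the start of Zfp386, a zinc finger gene outside the antigen receptor system, had 2.57, 2.47, 2.42 and 1.77, and a CTCF core site at chr12:116010961-116011140, at -10589 bp from Ighv1-85, had 0.544, 0.722, 0.436 and 0.421.

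**Figure D4:**
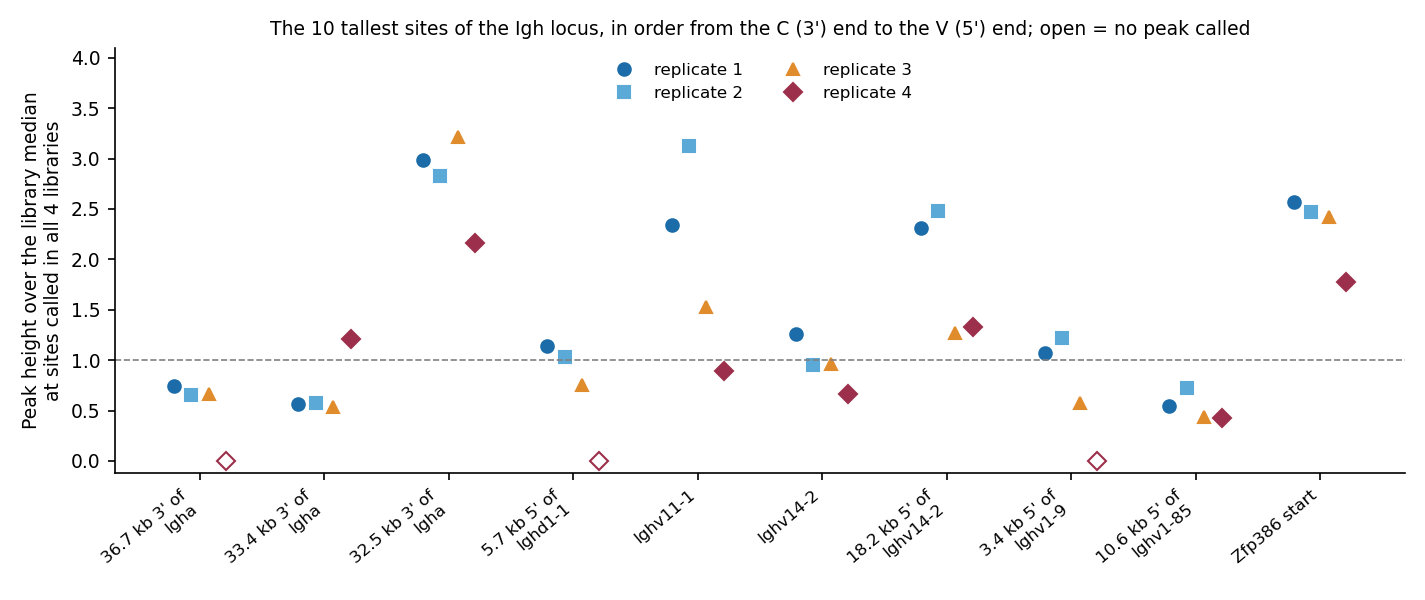
Relative height in each library, on a linear scale, of the 10 tallest Igh sites by mean relative height, placed in order from the 3′ flank to the 5′ flank and named by their nearest segment; open symbols mark libraries with no peak. The site 32480 bp from Igha is the tallest, and 7 of the 10 sites have a peak in all 4 libraries; the site of the pseudogene Ighv4-2 is the one named by its distance from Ighv14-2.

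Igk was almost bare across its V genes. Only Igkv4-58 had a peak within 1 kb of its start in 2 libraries, at 0.0578 and 0.0859 in replicates 1 and 3, and 6 others, among them Igkv2-137, Igkv4-51 and Igkv6-13, had one in a single library each, with relative heights from 0.0343 to 0.333. Of 24 V region sites, 1 was called in 3 libraries, beside the pseudogene Gm5309. Igkj1 to Igkj5 and Igkc had no peak within 1 kb, and the intron between them, where B cells have the kappa intronic enhancer, had no site. The sites called in 3 libraries that lay closest to the J segments were both in the interval between the V and J segments. That at chr6:70714261-70714520, at -8172 bp from Igkj1, had 0.320, 0.358 and 0.268 in replicates 1 to 3, and that at chr6:70709381-70709603 had 0.14, 0.114 and 0.196. The single Igk site called in all 4 libraries, chr6:70768861-70769080, which lies 42004 bp beyond Igkc and inside the gene body of Rpia, had 0.440, 0.432, 0.481 and 0.491 and holds the CTCF core.

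Igl sites were few. The only one called in 3 libraries, chr16:19179161-19179560, lies 15639 bp from Iglc4 and was at 0.0724, 0.213 and 0.351 in relative height in replicates 2, 3 and 4, with no peak in replicate 1. A pair of adjoining sites starting at chr16:19146301 was called in replicates 2 and 3, with 0.109 and 0.203 at the first and 0.202 and 0.323 at the second. Iglc2 and Iglj2 shared a peak in replicate 3 at 0.0893, and the other 10 Igl members had none in any library. In the same order of replicates 1 to 4, the summed relative height of the 18 B cell genes was 2.68, 3.03, 5.80 and 4.74. Replicate 1, with the lowest sum, had no Igl peak at these places. Replicate 4, with a higher sum than replicate 2, had a peak at chr16:19179161-19179560 but none at the pair or at Iglc2 and Iglj2. Whether the B cell sum bears on the Igl values was not tested.

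Of 31 genes that recombine the immunoglobulin loci or regulate them, 19 had a peak within 1 kb of the start in all 4 libraries, against 9230 of 21755 protein-coding genes and 21.1% of all other genes; these genes are not members of the loci. Among them were the end-joining genes Lig4, Prkdc, Nhej1, Xrcc4 and Xrcc5, with mean relative heights of 2.99, 2.98, 2.47, 1.30 and 1.61. Xrcc6, the partner of Xrcc5, had no peak within 1 kb of its annotated start in any library. Peaks at other promoters of a gene were not looked for, here or for the genes below. The 19 also included the chromatin loop genes Ctcf and Rad21, with 1.92 and 2.28. Rag1 and Rag2, the recombinase, and Dntt, which adds bases at the joints, had no peak in any library. Pax5, the B lineage factor, had 0.102, 0.313 and 0.719 in replicates 1, 3 and 4 and none in replicate 2, and Ebf1, another B lineage factor, had 0.247, 0.415, 0.729 and 0.772. Of the surrogate light chain genes, Vpreb1 had 1.27, 1.13, 1.54 and 1.09, and Vpreb2 and Igll1 had none.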

How the data were processed

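DNase-seq of 4 libraries was analysed from the deposited lists on mm10. Each library has a longer and a shorter peak list, footprints and cut-rate intervals, made from that library's alignment alone, per the files deposited beside it. The aligner, the peak caller and the treatment of multiply matching reads: not given in the sources used here. Peak column 7 is a signal deposited by the authors, the peak height scaled to depth. Footprints and cut-rate intervals carry a deposited q-value (a false discovery rate), which was 0.01 for all footprints, as a threshold would be, and under 0.05 for all cut-rate intervals. Read counts per site were not used here, so no counting interval is given.

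Gene models were GENCODE mouse release M21, and a locus was its span plus 50 kb. A segment was called with a peak within 1 kb of its start. The start of any gene was the 5′ end of its annotated span, so peaks at its other promoters were not counted. Locus values were log2 ratios within a library, with a pseudocount of 0.5, tested over libraries with an exact two-sided sign-flip permutation test and Benjamini-Hochberg adjustment over 6 tests. The locus density ratio and its test were tried on simulated peak lists, and the other steps were not. Motifs were searched on both strands of GRCm38.p6, and a 32-base word was counted as single-copy when it or its complement occurred once. Python 3.11.15, numpy 2.4.6, pandas 2.3.3, scipy 1.17.1, numba 0.67.0 and matplotlib 3.10.9 were used. Named segments and sites followed a rule: C genes with a peak in any library, other segments called in at least 3 libraries (or in any, where a class had none), the 10 tallest sites of each locus and the genes at them; not all are printed. The members, lists and rule were chosen with earlier results of these data known. Results of some genes are not reported here.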

Additional observations from a re-analysis of the deposited data

Results flagged for a closer look

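Of 22 sets of values checked over the 4 libraries, 1 had a library far from the others, and chance alone gives about 1 in 20. At the Igh site chr12:113221361-113221540, 33380 bp from Igha, the relative height was 1.21 in replicate 4, against 0.567, 0.571 and 0.540 in replicates 1 to 3. The site holds the CTCF core, and replicate 4 is the shallowest library.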

How the results depend on the processing

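Values here are mean log2 ratios unless a count is named. The Igh density of 0.27 turned to -0.10 with the shorter peak lists, -0.064 with no flank, -0.031 for base pairs under peaks and -0.36 for summed height per Mb; leaving out 1 library gave 0.07 to 0.73. The Igl density of -0.31 turned to 0.11 with no flank and 0.35 without peaks at starts of other genes; leaving out 1 library gave -0.59 to 0.15. The cut rate in segments, 1.20, turned to -0.60 under 0.01, -1.19 under 0.001 and -0.36 around segment starts. At both stricter cutoffs replicates 1 to 3 stayed above the genome, at 3.67, 3.92 and 2.97 times under 0.01 and 3.28, 3.49 and 1.73 times under 0.001. Replicate 4 had 1 base left under 0.01 and none under 0.001. Its value, which there rests on the pseudocount, turned these means negative. For the changes in Igh, in Igl and around segment starts the cause was not tested. Igk density, the ratio to the T cell receptor loci and footprints kept their direction under every alternative run (-4.22 to -1.56, -1.31 to -0.55 and -1.96 to -0.79). The count of 35 called segments was 19 with the shorter lists, 2 in all 4 libraries, 74 in any library and 2 with a window of 250 bp, which does not reach the V end; leaving out 1 library, with all the others then needed, gave 2 to 35, 35 being without replicate 4. The number of sites with a relative height above 1 in at least 3 libraries was 4, and 21 had a deposited height above 1 and 21 a rank above the median peak in as many. No paired analysis was possible because all libraries belong to 1 group. For replicates 1 and 2 alone the Igl density was -1.14. Replicate 4 has the lowest implied depth, and the part of depth in its values was not tested.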
